A study of Mus musculus with 15 samples.

Results

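Whether a transgene altered the early response of the mouse pancreas to cerulein was measured as a difference of differences, taken for each gene. The cerulein response of transgenic mice (cerulein minus saline) was set against the cerulein response of wild type mice. The result is called the interaction here and is given in log2 units: a value above 0 means that the transgenic response lay above the wild type response, and a value below 0 that it lay below. All 15 of the 15 arrays entered each fit, and 17347 genes were tested, out of 20660 with a named probe. The arrays were taken by the study's design and not by their values; the genes and lists named below were chosen with results of these data known.

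RNA from the whole pancreas of C57BL/6J males was hybridised to Agilent arrays after labelling with Cy3, 1 array per animal. Wild type mice received saline (animals 5, 6, 7 and 8) or cerulein (animals 9, 10, 11 and 12), and transgenic mice received saline (animals 2, 3 and 4, the 3 arrays analysed here) or cerulein (animals 13, 14, 15 and 16). After an 18 h fast, each mouse was injected intraperitoneally with 50 µg/kg cerulein in saline or with saline alone, and was killed 3 h later, although the labels give 0 h as the time of saline mice. The title of the series names betacellulin and ERBB4 in acute pancreatitis, while the sample labels say only transgenic or wild type. The age of the mice, the transgene construct and the promoter that drives it are not given in the sources used here.

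Cerulein is an analogue of cholecystokinin, the gut hormone that makes acinar cells release digestive enzymes. Above physiological doses it blocks secretion, activates enzymes inside the acinar cell and causes acute pancreatitis with oedema and leukocyte entry. Betacellulin is a ligand of the ERBB receptor family that binds EGFR and ERBB4, receptor tyrosine kinases that signal through ERK and PI3 kinase. Acinar cells carry a large endoplasmic reticulum (ER), in which chaperones fold the secreted enzymes.

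The arrays lay on 3 slides. Slide 1 held animals 2, 5, 9, 13 and 14, slide 3 held animals 3, 4, 6, 7, 8, 10 and 15, and slide 2 held only cerulein animals (11, 12 and 16). Slides 1 and 2 were scanned on the same day and slide 3 on another. The 75th percentile of the signal ran from 160 to 557 units across arrays, and 54.9% to 76.1% of probes were well above background. Slide was therefore a term in the model, and medians within slide 1 and within slide 3, where all 4 groups are present, stand beside the median of each gene list below. On slide 1 only the transgenic cerulein group has 2 animals and each other group 1, and on slide 3 each cerulein group has 1. Within-slide values thus rest partly on single animals and carry no error, and 1 animal can move all members of a list. The 28 measured digestive enzymes and secretory products averaged 9.37 to 11.1 in every array on the level scale used here (log2 signal minus the 75th percentile of the array).

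No gene had an interaction above 0 at an adjusted p below 0.05 (0% of the genes tested), and 1 gene, Alox12e, had an interaction below 0 (0.00576%), by limma with Benjamini-Hochberg adjustment over all genes. At an unadjusted p below 0.05 there were 414 genes (2.39%), 202 above 0 (1.16%) and 212 below (1.22%). The next smallest adjusted p was 1.00 to 3 digits. Without slide in the model no gene was called in either direction and 134 genes (0.772%) had an unadjusted p below 0.05. Where no gene has an interaction, this threshold passes about 1 in 20 genes, and both shares lie below that. Unadjusted p-values are therefore given below as values only. The standard error of the interaction had a median of 0.27 over all genes with slide and 0.43 without. For comparison, the median standard error of the cerulein response averaged over the genotypes was 0.16. The genotype difference averaged over the treatments was called above 0 for 390 genes (2.25%) and below 0 for 183 (1.05%), and without slide for 94 (0.542%) and 5 (0.0288%). Transgenic exceeded wild type for 40 genes after saline (0.231%) and for 90 after cerulein (0.519%), and lay below it for 1 (0.00576%) and 25 (0.144%). The 95% interval of the interaction was, at the median gene, 0.60 wide on each side.

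The cerulein response itself was large and was shared by the genotypes. The response averaged over the genotypes passed the test upward for 3268 genes (18.8%) and downward for 2552 (14.7%). Among them, 1671 genes (9.63%) changed at least 2-fold, 1282 upward and 389 downward. Genes of this set are called responding genes below, and the average that chose them weighs the genotypes alike. Their median response was 1.57 in wild type and 1.53 in transgenic mice for the genes that rose, and −1.33 and −1.30 for those that fell. None of the 1671 had a called interaction, and 71 (4.25%) had an unadjusted p below 0.05, of which 27 responded more strongly in transgenic and 44 more weakly.

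How far the data bound a difference varied from gene to gene. For 941 of the responding genes (56.3%) the 95% interval of the interaction lay wholly within 2-fold in either direction, and for 730 it did not. So a difference larger than 2-fold lay outside the interval for the former genes and could not be settled at this number of arrays for the latter. Turned in the direction of each gene's response, the median interaction of the responding genes was −0.02, against a median of 0.01 over all genes tested. It was −0.15 within slide 1, −0.01 within slide 3 and, without slide in the model, 0.08 for the same genes and −0.08 for the genes that fit itself called. Its sign also turned without animal 2 (0.08), 10 (0.03) or 13 (0.07), so it has no settled direction. The transgenic response was the larger for 46.6% of them: 627 of 1282 genes that rose and 152 of 389 that fell.

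**Figure D1:**
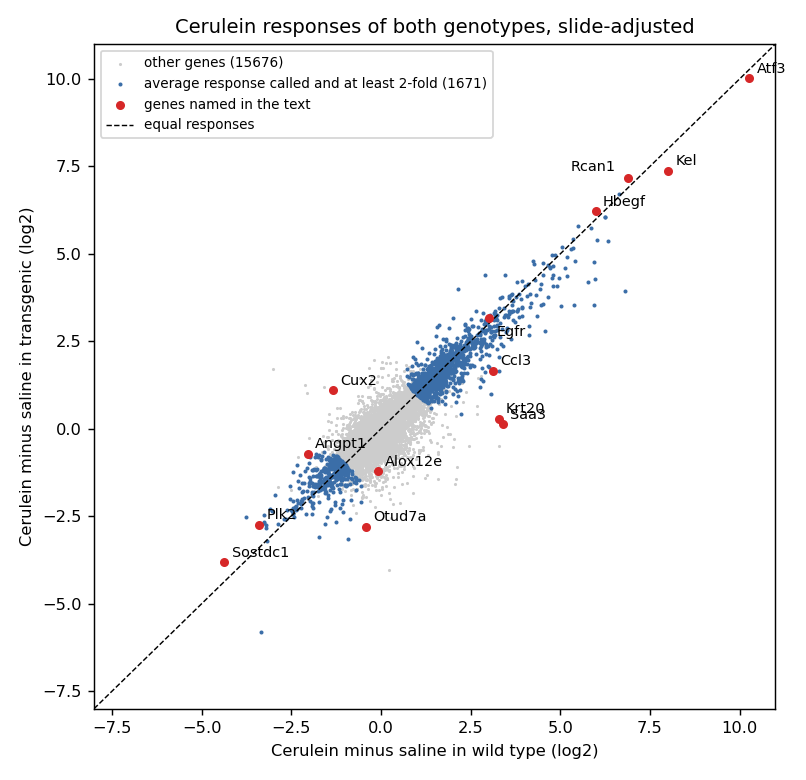
Each point is a gene, placed by its cerulein response in wild type mice (horizontal, log2) and in transgenic mice (vertical, log2), both adjusted for slide; blue points are the 1671 responding genes and the dashed line marks equal responses. Most blue points lie along the line, with Atf3 at 10.27 and 10.02, while Krt20 at 3.28 and 0.29 and Angpt1 at −2.04 and −0.71 stand off it.

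In the plot of the responses of both genotypes, points follow the line of equal responses at either end. Across the 17347 genes the responses had a Pearson r of 0.871 and a Spearman rho of 0.784. These are descriptions across genes, which are not independent replicates, and the responses share the slide terms of the fit. Counted separately, 1647 genes passed the test at 2-fold or more in wild type and 1600 in transgenic mice. Shared in the same direction were 1290, which is 78.3% of the wild type list and 80.6% of the transgenic list, and none changed in opposite directions. Genes that passed the test in both genotypes but reached 2-fold in only 1 are counted neither as shared nor as single. Of 181 genes at 2-fold or more that passed the test only in wild type, 35 had an unadjusted interaction p below 0.05 and 0 a called interaction. Of 153 that passed it only in transgenic mice, the counts were 28 and 1. These unadjusted counts stand beside the 2.39% of all genes; lists chosen for a call in 1 genotype favour unequal responses, so nothing is read from them. Without slide the lists held 1697 and 1198 genes and shared 990, which is 58.3% of the wild type and 82.6% of the transgenic list, with 665 genes called only in wild type and 123 only in transgenic mice.

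The levels of the responding genes were also compared by animal. Averaged over the 1282 genes that rose and adjusted for slide, levels were set against a saline reference shared by both genotypes. The difference was 1.58, 1.95, 1.97 and 2.04 in transgenic cerulein animals 13 to 16, and 1.82, 1.91, 1.61 and 1.82 in wild type cerulein animals 9 to 12. The group means were 1.89 ± 0.21 (SD, n = 4) and 1.79 ± 0.13 (SD, n = 4), and the groups overlap. The saline groups lay at 0.07 ± 0.12 (SD, n = 3) in transgenic and −0.07 ± 0.06 (SD, n = 4) in wild type mice. These values therefore do not give the response of each genotype against its own saline animals. Over the 389 genes that fell the difference from the shared reference was −1.19, −1.53, −1.41 and −1.38 in the transgenic and −1.40, −1.69, −1.49 and −1.59 in the wild type animals. These groups overlap too. For these genes the saline groups lay at 0.06 in transgenic and −0.06 in wild type mice.

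**Figure D2:**
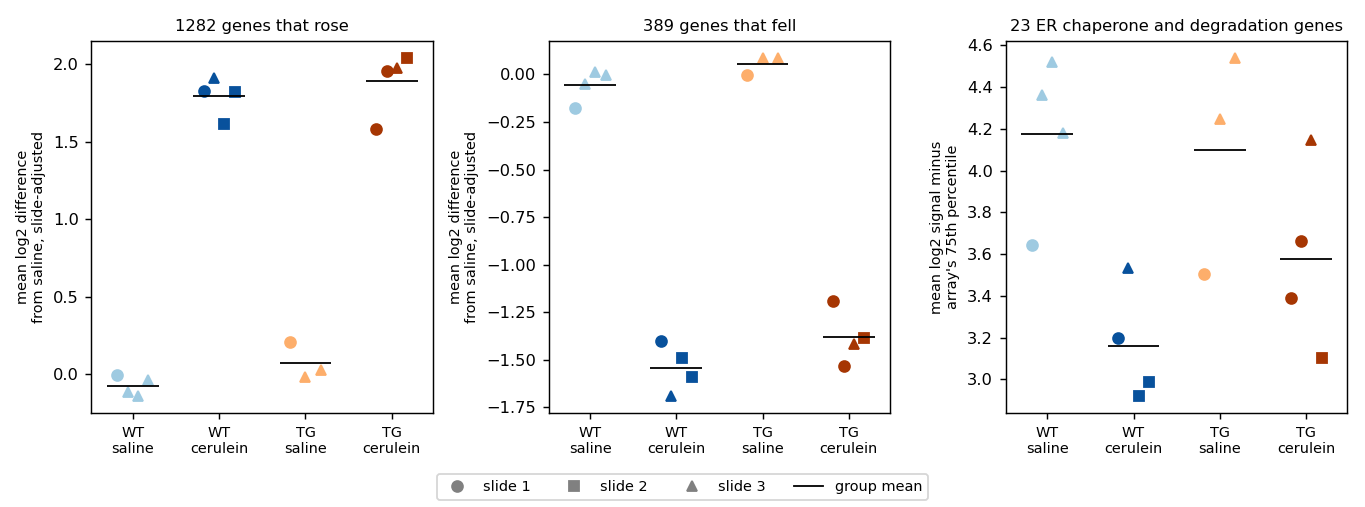
Each point is an animal. The left and middle panels give the mean difference from a saline reference shared by both genotypes (log2, adjusted for slide) over the 1282 genes that rose and the 389 that fell. The right panel gives the mean level (log2 signal minus the 75th percentile of the array) of the 23 ER chaperone and degradation genes. Horizontal lines are group means and symbols mark slides; the cerulein groups overlap in the left and middle panels, and in the right panel each transgenic cerulein animal lies above the wild type cerulein animals of its own slide.

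Alox12e, an epidermal arachidonate lipoxygenase, was the only gene with a called interaction. Its level in wild type mice was −0.90, −1.17, −1.12 and −1.11 after saline (animals 5 to 8) and −1.15, −1.10, −0.25 and −0.22 after cerulein (animals 9 to 12). In transgenic mice it was −0.24, −0.31 and −0.27 after saline (animals 2 to 4) and −1.34, −1.37, −1.60 and −0.57 after cerulein (animals 13 to 16). The 3 transgenic saline animals lie above all 4 wild type saline animals, and after cerulein the 3 highest arrays of the gene are those of slide 2 (animals 11, 12 and 16).

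With slide in the model the wild type response of Alox12e was −0.09 (adjusted p = 0.588) and the transgenic response −1.21 (adjusted p = 7.2e-06). The interaction was −1.12 ± 0.13 (SE; limma, adjusted p = 0.0371). Transgenic exceeded wild type by 0.79 after saline (adjusted p = 0.00655), and the difference was −0.33 after cerulein (adjusted p = 0.124). Within slide 1 the interaction was −0.86 and within slide 3 it was −1.33. The call is not firm: it was lost without slide in the model (−1.34, adjusted p = 1.00), without the arrays of slide 2 (−1.12, adjusted p = 0.364), and in 13 of 15 fits that left out 1 animal, and was kept in those without animal 5 (adjusted p = 0.0459) or animal 13 (adjusted p = 0.0486).

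**Figure D3:**
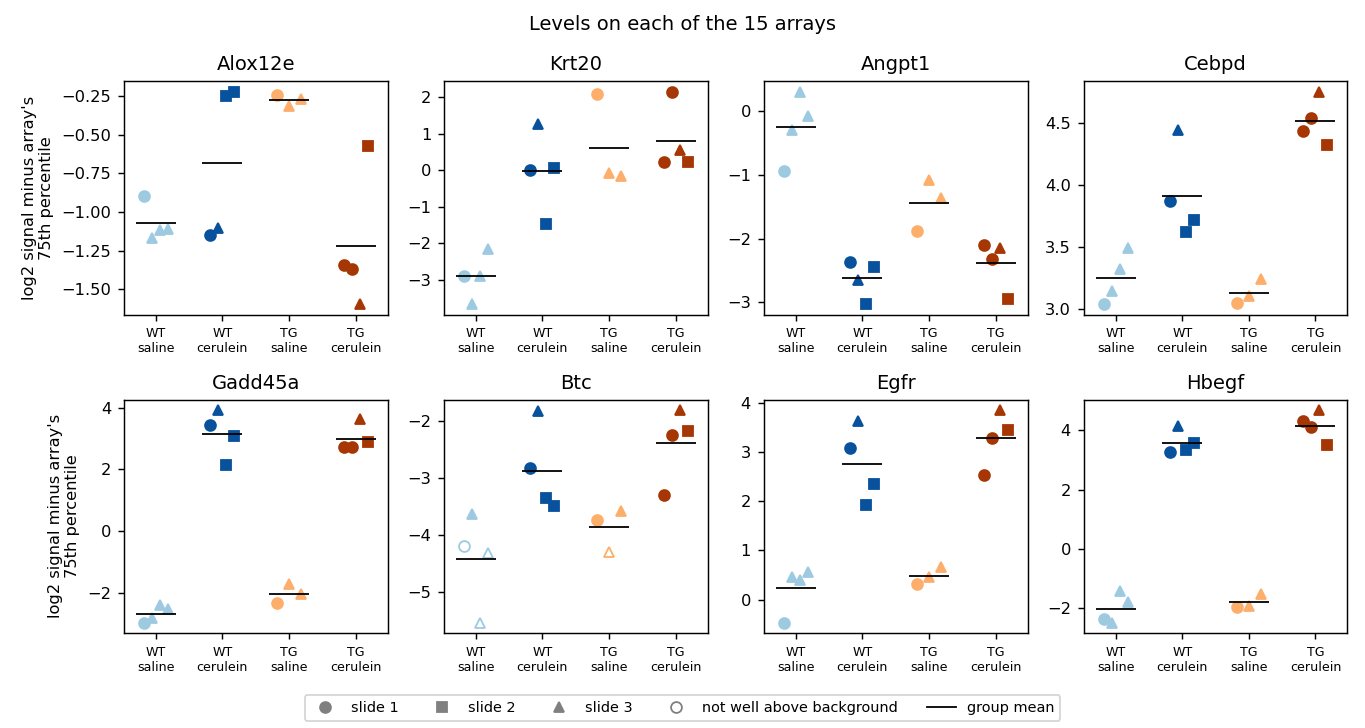
Levels (log2 signal minus the 75th percentile of the array) of 8 genes in each of the 15 animals, by group; symbols mark slides, open symbols are probes not well above background and lines are group means. Alox12e is high on slide 2 and in transgenic saline animals; Hbegf, Egfr and Gadd45a separate saline from cerulein in both genotypes.

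The other genes with the smallest unadjusted p in either direction were not called (limma, adjusted p = 1.00 for each) and are given as values. Of these 15 and Alox12e together, 8 rest on a probe not well above background in any animal of at least 1 group: Cux2, Myh7b, Srrm4, Otud7a, Samd11, Tex46, Clcn1 and Zfp983. Their fitted interactions run from −2.37 for Otud7a, a deubiquitinase, to 2.44 for Cux2, a homeobox factor. A level below background is only a bound, so these sizes are not fixed. The remaining genes were above background in at least 14 of the 15 animals.

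Cebpd, a transcription factor of the acute phase response, had an interaction of 0.63 ± 0.17 (SE). It rose by 0.94 in wild type (adjusted p = 0.000328) and by 1.57 in transgenic mice (adjusted p = 7.54e-06). After saline its level was 3.04, 3.14, 3.32 and 3.49 in wild type animals 5 to 8 and 3.05, 3.1 and 3.24 in transgenic animals 2 to 4. After cerulein it was 3.87, 4.45, 3.62 and 3.72 in wild type animals 9 to 12 and 4.44, 4.54, 4.75 and 4.32 in transgenic animals 13 to 16. The saline groups overlap, and only wild type animal 10 reached the range of the transgenic animals after cerulein.

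Angpt1, the angiopoietin that activates the endothelial receptor Tek, fell by 2.04 in wild type mice (adjusted p = 0.000291), while the transgenic response was −0.71 (adjusted p = 0.0835). The interaction was 1.33 ± 0.35 (SE). Its level after saline was −0.94, −0.29, 0.31 and −0.07 in wild type animals 5 to 8 and −1.87, −1.08 and −1.37 in transgenic animals 2 to 4. In cerulein animals it was −2.36, −2.65, −3.03 and −2.45 in wild type animals 9 to 12 and −2.09, −2.32, −2.15 and −2.95 in transgenic animals 13 to 16. The genotypes stand apart after saline and overlap after cerulein, although the saline difference of −1.16 did not pass the test (adjusted p = 0.118).

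Acsl3, an acyl-CoA synthetase for long-chain fatty acids, fell by 2.25 in wild type and by 1.33 in transgenic mice (interaction 0.92 ± 0.25, SE), with an interaction of 0.35 within slide 1 and 0.10 with normexp background correction. Ear2, an eosinophil-associated ribonuclease, fell by 1.5 in wild type mice (adjusted p = 0.00122), against a transgenic response of −0.23 (adjusted p = 0.554). It belongs to a family of near-identical genes whose signals an array may not separate. Gucy2d, a membrane guanylate cyclase, rose by 0.61 in transgenic mice (adjusted p = 0.00628), and its wild type response was −0.17 (adjusted p = 0.426). Below 0 stood Cyp2c29, a cytochrome P450, at −0.89 ± 0.18 (SE), and Cntln, a centrosomal protein, at −0.57 ± 0.14 (SE). Another Cntln probe, above background on all 15 arrays, gave −0.22, with responses of 0.12 in wild type and −0.10 in transgenic mice. In Cyp2c29 the transgenic animals were 1.32 higher after saline (adjusted p = 0.00248) and 0.43 higher after cerulein (adjusted p = 0.159).

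**Figure D4:**
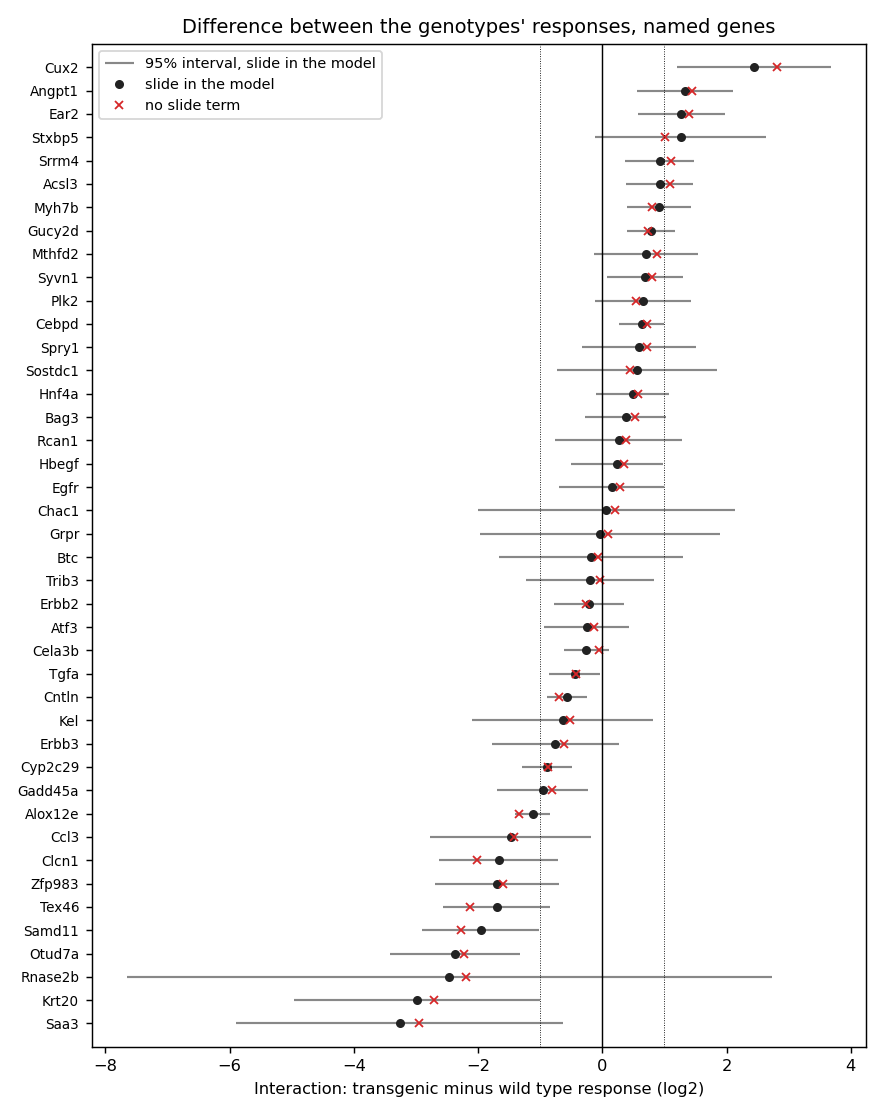
Interaction (transgenic minus wild type response, log2) of the 42 measured genes named by rule, with 95% intervals from the fit with slide (black) and the value without slide (red crosses); dotted lines mark 2-fold in either direction. Intervals are narrow for Alox12e (−1.40 to −0.84) and Cebpd (0.27 to 1.00) and wide for Rnase2b (−7.65 to 2.73) and Saa3 (−5.90 to −0.63).

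The ERBB ligands showed no called interaction: 8 of 11 listed ligands were measured, 3 above 0 and 5 below, with a median of −0.15 (0.33 within slide 1 and −0.71 within slide 3). Btc, betacellulin itself, was near background. Its level in wild type mice was −4.19, −3.63, −5.53 and −4.30 after saline (animals 5 to 8; above background only in animal 6) and −2.83, −1.81, −3.34 and −3.49 after cerulein (animals 9 to 12). In transgenic mice it was −3.73, −4.29 and −3.56 after saline (animals 2 to 4; above background in animals 2 and 4) and −3.30, −2.24, −1.80 and −2.17 after cerulein (animals 13 to 16). The genotypes overlap under either treatment.

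Btc rose by 1.90 in wild type (adjusted p = 0.0233) and by 1.72 in transgenic mice (adjusted p = 0.0321), and the interaction was −0.18 ± 0.67 (SE; 95% interval −1.66 to 1.29). Transgenic minus wild type was 0.58 after saline (adjusted p = 0.764) and 0.40 after cerulein (adjusted p = 0.736). The array carries 1 kept probe for Btc, whose position in the transcript is not given in the files, so it may lie outside a transgene's sequence and does not check the genotype labels.

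Hbegf, another EGFR and ERBB4 ligand, rose most among the ligands: by 5.99 in wild type and by 6.23 in transgenic mice. Its level after saline was −2.35, −2.48, −1.42 and −1.80 in wild type animals 5 to 8 and −1.96, −1.93 and −1.5 in transgenic animals 2 to 4. After cerulein it was 3.28, 4.16, 3.33 and 3.57 in wild type animals 9 to 12 and 4.32, 4.12, 4.68 and 3.50 in transgenic animals 13 to 16. The treatments stand far apart and the genotypes overlap within each. The interaction of Hbegf was 0.23 ± 0.34 (SE), with an interval of −0.51 to 0.98 that lies within 2-fold. Tgfa, which also binds EGFR, fell by 0.57 in wild type and by 1.02 in transgenic mice, with an interaction of −0.45 ± 0.18 (SE, unadjusted p = 0.0329; −0.02 within slide 1 and −0.87 within slide 3).

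Of 13 listed receptors and direct regulators, 12 were measured, with 6 interactions above 0, 6 below, a median of 0.01 (−0.13 within slide 1 and −0.17 within slide 3) and none called. Egfr rose by 3.02 in wild type (adjusted p = 3.68e-05) and by 3.16 in transgenic mice (adjusted p = 2.16e-05). The interaction of Egfr was 0.15 ± 0.39 (SE), with an interval of −0.70 to 1.00, and it turned to −0.33 without slide 2. Its 2 other probes gave −0.07 and −0.08, with smaller responses of 0.84 to 0.92. Erbb3, a receptor with a weak kinase, rose by 1.82 in wild type mice (adjusted p = 0.00391), against 1.06 in transgenic mice (adjusted p = 0.0523), and the interaction was −0.76 ± 0.47 (SE). Erbb2 did not pass the test in either genotype, with responses of 0.03 and −0.18. Erbb4, the receptor named in the series title, passed background on 1 of 15 arrays and so did not enter the fit.

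Targets that ERK signalling induces and that feed back on it were measured for 15 of 16 listed genes. Their interactions had a median of 0.24 (−0.01 within slide 1 and 0.33 within slide 3), with 11 above 0 and 4 below and none called. Dusp5, a phosphatase that inactivates ERK and was above background in 12 of 15 animals, rose by 2.94 in wild type and by 2.43 in transgenic mice. Spry1, an inhibitor of receptor tyrosine kinase signalling, had the smallest p of the list, with an interaction of 0.59 ± 0.42 (SE, unadjusted p = 0.188).

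The immediate early genes are transcribed within minutes of a stimulus. In wild type mice 21 of 29 measured genes rose and 2 fell (over all genes, 13.7% rose and 7.78% fell), and in transgenic mice 21 rose and 1 fell (over all genes, 15.2% and 8.34%). Their median response was 2.91 in wild type and 2.77 in transgenic mice, and their median interaction was −0.06 (−0.03 within slide 1 and −0.31 within slide 3), with 0 called and 1 at an unadjusted p below 0.05. Atf3, the stress-induced repressor with the largest response of the array, rose by 10.27 and 10.02 (interaction −0.25 ± 0.31, SE).

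Gadd45a, a growth arrest gene, had the smallest p of that list. Its level after saline was −2.97, −2.83, −2.40 and −2.54 in wild type animals 5 to 8 and −2.33, −1.71 and −2.04 in transgenic animals 2 to 4. In cerulein animals it was 3.46, 3.92, 2.15 and 3.07 in wild type animals 9 to 12 and 2.74, 2.74, 3.64 and 2.89 in transgenic animals 13 to 16. All transgenic saline animals lie above the wild type ones, and the genotypes overlap after cerulein. Gadd45a rose by 6.34 in wild type and by 5.38 in transgenic mice, a difference of −0.96 ± 0.33 (SE, unadjusted p = 0.0141). Egr1, whose interaction is the lowest of the list at −1.77, was chosen after its values were seen: its level was −2.38 to −0.53 in wild type and 0.46 to 1.74 in transgenic animals after saline, and 1.40 to 4.24 and 2.62 to 4.58 after cerulein.

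The integrated stress response, through which Atf4 raises amino acid and stress genes, was measured through 21 genes. Of these, 15 rose and 1 fell in wild type mice (over all genes, 13.7% rose and 7.78% fell). In transgenic mice 17 rose and 0 fell (over all genes, 15.2% and 8.34%). The list's median interaction was 0.07 (0.24 within slide 1 and −0.02 within slide 3), with 0 called. Chac1, a glutathione-degrading enzyme, rose by 6.64 and 6.71, Trib3, a pseudokinase, by 6.26 and 6.06, and Mthfd2, a mitochondrial folate enzyme, by 1.29 and 1.99. Heat shock proteins had a median interaction of 0.18 over 15 genes, but of −0.0046 within slide 1 and −0.09 within slide 3. Of them, 10 rose in wild type (over all genes, 13.7%) and 12 in transgenic mice (over all genes, 15.2%). Hspa1a, the inducible Hsp70, rose by 5.12 and 4.59 with an interval of −3.80 to 2.74, so its interaction is not bounded usefully.

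Interactions of 1 sign throughout were seen in ER chaperones and ER degradation factors, in ribosome biogenesis genes and in neutrophil markers. The ER genes fold secretory proteins and dispose of misfolded ones. All 23 of 23 listed genes were measured and above background in every animal, and all 23 interactions were above 0, where 51.3% of all genes tested were. None was called, and 4 had an unadjusted p below 0.05. The median was 0.33 (quartiles 0.25 and 0.50) against 0.01 over all genes, and it was 0.55 within slide 1, 0.54 within slide 3 and 0.48 without slide. Members of a list share their samples, so their common sign is not 23 separate observations.

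The calls within each genotype went mostly downward; whether their number differs between the genotypes was not tested. In wild type mice 2 rose and 11 fell, with a median response of −0.68, where 13.7% of all genes rose and 7.78% fell. In transgenic mice 3 rose and 6 fell, with a median of −0.24, where 15.2% and 8.34% of all genes did. The mean level of the 23 genes after saline was 3.64, 4.36, 4.52 and 4.18 in wild type animals 5 to 8 and 3.51, 4.25 and 4.54 in transgenic animals 2 to 4. After cerulein it was 3.20, 3.53, 2.92 and 2.99 in wild type animals 9 to 12 and 3.39, 3.66, 4.15 and 3.1 in transgenic animals 13 to 16. The saline groups overlap. After cerulein the groups overlap across slides, but on slide 1 (animal 9 against 13 and 14), slide 2 (animals 11 and 12 against 16) and slide 3 (animal 10 against 15) the transgenic animals are the higher.

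Calr, calreticulin, the lectin chaperone of glycoproteins, had the largest interaction of the list, 0.80 ± 0.33 (SE, unadjusted p = 0.0348). Its level after saline was 2.84, 3.37, 3.42 and 3.22 in wild type animals 5 to 8 and 2.39, 3.11 and 3.62 in transgenic animals 2 to 4. In cerulein animals it was 2.0, 1.75, 1.31 and 1.75 in wild type animals 9 to 12 and 1.93, 2.60, 3.1 and 2.04 in transgenic animals 13 to 16. Only transgenic animal 13 lies within the wild type range after cerulein. Calr fell by 1.15 in wild type mice (adjusted p = 0.00805), and the transgenic response was −0.35 (adjusted p = 0.368).

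Syvn1, the ubiquitin ligase of ER-associated degradation, behaved similarly in its values. After saline it was 5.63, 6.15, 6.52 and 5.91 in wild type animals 5 to 8 and 5.56, 5.84 and 6.25 in transgenic animals 2 to 4. After cerulein it was 4.77, 4.98, 4.85 and 4.59 in wild type animals 9 to 12 and 5.50, 5.43, 6.01 and 4.74 in transgenic animals 13 to 16. Animal 16, on slide 2, is the only transgenic animal inside the wild type range. Syvn1 fell by 0.89 in wild type mice (adjusted p = 0.0121) and the transgenic response was −0.20 (adjusted p = 0.541), an interaction of 0.68 ± 0.28 (SE, unadjusted p = 0.0306).

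Edem1, which passes misfolded glycoproteins on for degradation, fell in both genotypes, by 1.02 and 0.50, with an interaction of 0.52 ± 0.21 (SE). Dnajb11, a co-chaperone, fell by 0.70 in wild type mice and had a transgenic response of −0.34 (adjusted p = 0.0692). Hspa5 (BiP), the main ER chaperone, rose, by 0.70 in wild type (adjusted p = 0.019) and by 1.03 in transgenic mice (adjusted p = 0.00172), with an interaction of 0.33 ± 0.24 (SE). Calr, Edem1, Dnajb11 and Hspa5 were chosen after their values were seen.

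Many ER chaperone promoters carry the ER stress response element, which the activated factors ATF6 and XBP1 bind with NF-Y. The full element, CCAAT and CCACG separated by any 9 bases, was searched on both strands of the 250 bases before each gene's start (RefSeq promoters, GRCm38.p6). Of the 23 ER genes, 20 had a promoter entry and 10 of them held the element (50.0%), against 20 of 13765 genes tested with an entry (0.145%). The promoters of the 3 holders with the smallest unadjusted interaction p, Calr, Creld2 and Syvn1, are shown as the sequences behind the members described here. None of the 3 had a called interaction. Each reads 5′ to 3′ on the strand of its gene and ends at the base before the start, and capitals mark the element or its reverse complement. They are Calr at chr8:84846932-84847181 (minus strand), Creld2 at chr15:88819396-88819645 (plus strand) and Syvn1 at chr19:6046326-6046575 (plus strand).
Calr: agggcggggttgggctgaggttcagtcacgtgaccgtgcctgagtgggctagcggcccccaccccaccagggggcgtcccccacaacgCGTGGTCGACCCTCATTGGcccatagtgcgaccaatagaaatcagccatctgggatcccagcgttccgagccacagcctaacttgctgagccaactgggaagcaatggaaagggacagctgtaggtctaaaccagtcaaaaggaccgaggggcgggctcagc
Creld2: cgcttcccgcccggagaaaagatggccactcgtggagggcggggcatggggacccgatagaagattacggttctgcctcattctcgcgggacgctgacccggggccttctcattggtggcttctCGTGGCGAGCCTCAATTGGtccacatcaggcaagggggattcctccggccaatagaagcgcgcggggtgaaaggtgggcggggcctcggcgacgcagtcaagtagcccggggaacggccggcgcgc
Syvn1: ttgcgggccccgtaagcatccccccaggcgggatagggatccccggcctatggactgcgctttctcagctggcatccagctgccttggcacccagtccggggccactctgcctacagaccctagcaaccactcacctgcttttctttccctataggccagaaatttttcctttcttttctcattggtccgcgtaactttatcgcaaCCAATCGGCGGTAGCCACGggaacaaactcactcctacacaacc

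The element ends 143 bases before the start of Calr and 25 bases before that of Syvn1. Creld2, a disulfide isomerase family member, had an interaction of 0.68 (95% interval −0.06 to 1.43). Over the 10 holders of the list the interaction ran from 0.18 for Canx, calnexin, to 0.80 for Calr. List members that are not among these holders were also all above 0, among them Edem1 (0.52) and Dnajb11 (0.36). Whether holders differ from other members was not tested. A match of letters is not a measured binding site. The other 10 genes tested that hold the element and are not in the list, among them Alg12, Hnrnpa3 and Acacb, had a median interaction of −0.08, with 5 above 0. Whether they differ from the list was not tested.

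Digestive enzymes and secretory products, the bulk of acinar RNA, had a median interaction of −0.09 over 28 of 30 listed genes, with 6 above 0, 22 below and 0 called. The interval of the interaction lay within 2-fold for all 28. In wild type mice 1 of them fell (over all genes, 7.78%) and in transgenic mice 8 fell (over all genes, 8.34%). The sign depends on the slide term: the list's median was 0.09 without slide, 0.16 within slide 1 and −0.30 within slide 3. In whole tissue, fewer cells of a type and less RNA per cell cannot be told apart. Cela3b, an elastase, had the smallest p of the list, with an interaction of −0.26 ± 0.17 (SE).

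Acinar transcription factors had a median interaction of 0.16 over 12 genes, 8 above 0 and 4 below (0.34 within slide 1 and −0.12 within slide 3). Ptf1a, the factor that maintains acinar identity, rose by 1.54 in wild type and 1.94 in transgenic mice, while Rbpjl, its partner, fell by 1.46 and 1.45 and Foxa2 by 2.22 and 2.06. Hnf4a had the smallest p of the list (interaction 0.49 ± 0.27, SE). Xbp1, an activator of ER chaperone genes, had an interaction of 0.39 (95% interval −0.09 to 0.88).

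Duct and metaplasia markers had a median of −0.03 over 18 of 20 listed genes, with 9 above 0 and 9 below (−0.24 within slide 1 and −0.05 within slide 3). Krt8 and Krt18, the keratins of simple epithelia, rose in both genotypes, by 4.71 and 4.63 and by 2.22 and 2.06. Krt20, a keratin of intestinal and injured ductal epithelium, had the smallest p of the list but no called interaction. Its level after saline was −2.90, −3.67, −2.88 and −2.16 in wild type animals 5 to 8 and 2.09, −0.06 and −0.16 in transgenic animals 2 to 4. In cerulein animals it was 0.01, 1.27, −1.46 and 0.07 in wild type animals 9 to 12 and 0.22, 2.15, 0.54 and 0.24 in transgenic animals 13 to 16. Transgenic saline animals lie above all wild type saline animals and within the range of the cerulein animals.

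Krt20 rose by 3.28 in wild type mice (adjusted p = 0.00599), and the transgenic response was 0.29 (adjusted p = 0.807). Its interaction was −2.99 ± 0.90 (SE, unadjusted p = 0.0067, adjusted p = 1.00 by limma), −3.81 within slide 1 and −3.52 within slide 3. Transgenic minus wild type after saline was 3.48 (adjusted p = 0.062). The 2 animals highest in Krt20, numbers 2 and 14, are also the highest in the 11 measured intestinal epithelium markers, whose mean level was 1.97 and 1.69 there and −1.96 to −0.75 in the other 13 animals. Without animal 2 the interaction of Krt20 was −2.20, and without animal 14 it was −3.28. The part of intestinal tissue in this result was not tested. Mmp7, a protease of the same list, had an interaction of −0.86 (unadjusted p = 0.0331).

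Cytokines, chemokines and NF-kB targets had a median of −0.04 over 25 of 32 listed genes, 11 above 0 and 14 below, with −0.14 within slide 1 and 0.20 within slide 3. Of them, 5 rose in wild type (over all genes, 13.7%) and 10 in transgenic mice (over all genes, 15.2%). Ccl2, which attracts monocytes, rose by 3.14 in wild type and by 2.68 in transgenic mice. Ccl3 had the smallest p of the list, with a fitted interaction of −1.48 ± 0.59 (SE). It was not well above background in any wild type saline animal, so that value depends on a bound. Relb, an NF-kB subunit, had an interaction of 0.60 (unadjusted p = 0.0322), with responses of 0.00 and 0.60.

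Reg family and acute phase genes had a median of −0.37 over 22 of 23 listed genes, 19 below 0 and 3 above. In wild type mice 4 rose (over all genes, 13.7%), and in transgenic mice 2 rose and 2 fell (over all genes, 15.2% and 8.34%), which is near those shares. Saa3, a serum amyloid, had a fitted interaction of −3.26 ± 1.2 (SE), with −6.05 within slide 1 and −2.77 within slide 3. Without transgenic saline animal 2, which also stands apart in the intestinal markers, it was −1.81, and with normexp it was −1.39. It was above background in 1 of 7 saline animals, number 2 at −0.70, and in all 8 cerulein animals, where it ran from −4.21 to −1.35 in wild type and from −3.91 to −3.13 in transgenic mice. Reg3b and Reg3g, secreted lectins, had interactions of −2.61 and −2.24 with intervals that include 0. The list's median was −0.04 within slide 1 and −0.66 within slide 3.

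Neutrophil markers had interactions below 0 for all 11 measured of 15 listed, with a median of −0.43, none called and 1 with an unadjusted p below 0.05. The latter, Il1r2 (−1.32), was not well above background in any saline animal, so its value depends on a bound. The median of the 11 markers was −0.79 within slide 1 and −0.66 within slide 3. In wild type mice 5 rose (over all genes, 13.7%), and in transgenic mice 2 rose and 1 fell (over all genes, 15.2% and 8.34%), the latter near those shares. The mean level of the 11 markers was −2.25 to −1.26 in wild type saline, −1.13 to −0.24 in transgenic saline, −1.11 to −0.18 in wild type cerulein and −0.74 to −0.00 in transgenic cerulein animals. Transgenic saline animals thus lie above all wild type saline animals, and the cerulein groups overlap. The part of neutrophil number in other interactions was not tested.

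S100a9, a calcium-binding protein abundant in neutrophils, shows the pattern. It has the lowest interaction of the list and was chosen after its values were seen. After saline its level was −2.90, −0.51, −4.05 (not well above background) and −4.18 in wild type animals 5 to 8 and 0.98, 1.85 and 0.13 in transgenic animals 2 to 4. After cerulein it was −1.24, 1.31, −0.00 and −0.33 in wild type animals 9 to 12 and 1.42, 1.25, 2.34 and 1.95 in transgenic animals 13 to 16. S100a9 rose by 3.06 in wild type mice (adjusted p = 0.0283), and the transgenic response was 0.99 (adjusted p = 0.464). Its interaction was −2.08, with an interval of −4.56 to 0.40.

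T, NK and B cell markers had 16 of 17 interactions below 0, with a median of −0.43 that was −1.5 within slide 1 and −0.27 within slide 3. Their mean level ranged from −1.76 to 1.39 among the 4 wild type saline animals alone, wider than between groups. Intestinal markers had 9 of 11 below 0 (median −0.43; −1.72 within slide 1 and −0.25 within slide 3), again with animals 2 and 14 apart. Medians were −0.07 for monocyte and macrophage markers (−0.43 within slide 1, −0.05 within slide 3) and −0.07 for islet markers (−0.41 and 0.52). They were 0.06 for endothelial markers (−0.26 and 0.11), 0.14 for fibroblast and stellate cell markers (−0.11 and 0.10) and 0.09 for adipocyte markers (0.98 and −0.55). Of these 7 lists, none holds a called interaction.

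Matrix genes and proteases had 18 of 21 interactions above 0, with a median of 0.36, but the median was 0.01 within slide 1 and 1.10 within slide 3. Col1a1, the main fibrillar collagen, had the largest, 1.26, with an interval of −0.13 to 2.65, and Mmp2, a gelatinase, had 0.76 (unadjusted p = 0.027). Levels of Mmp2 were −1.13 to −0.92 in wild type saline, −0.25 to 0.34 in transgenic saline, −1.88 to −0.86 in wild type cerulein and 0.16 to 1.38 in transgenic cerulein animals. The genotypes do not overlap under either treatment. Ribosome biogenesis genes had 21 of 21 above 0 with a median of 0.24, with −0.04 within slide 1 and 0.30 within slide 3. Nolc1, a nucleolar chaperone, rose by 0.79 in wild type and by 1.25 in transgenic mice.

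**Figure D5:**
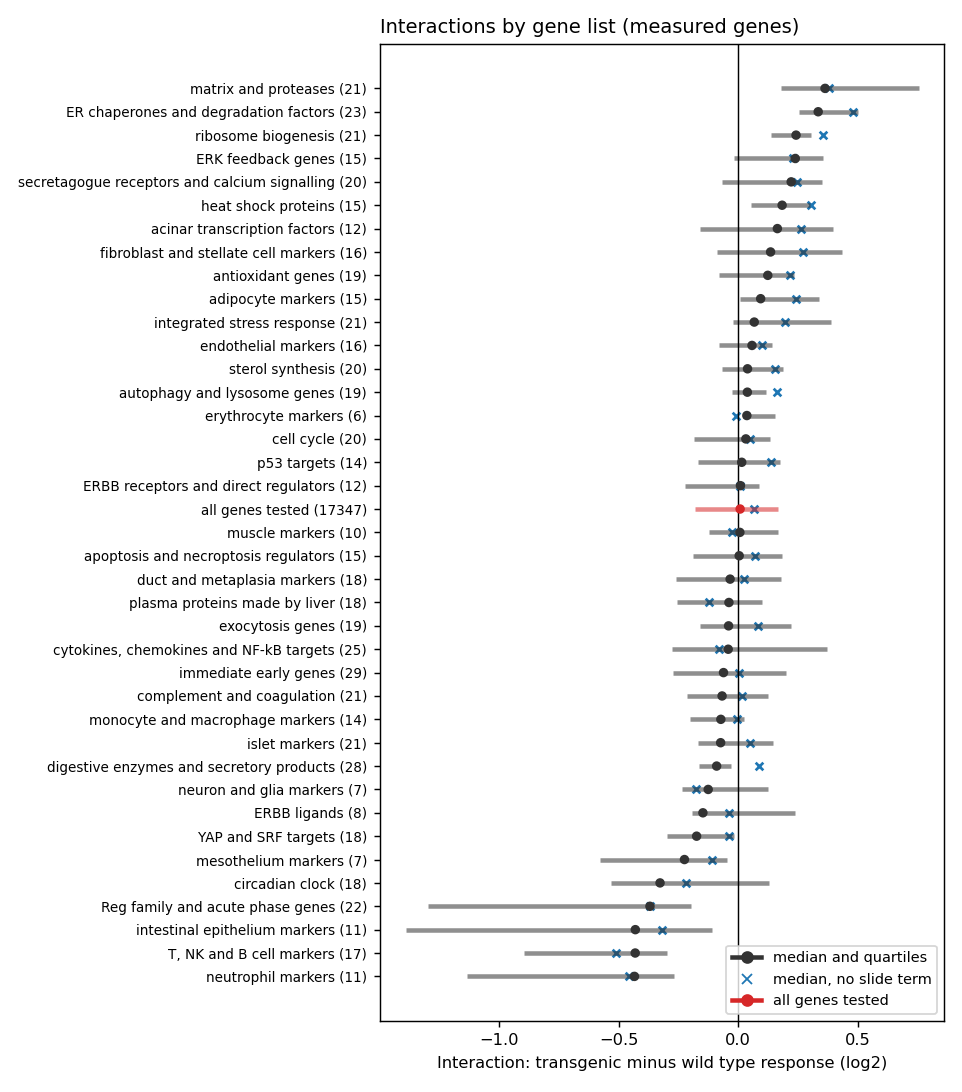
Median interaction (dots, log2) with quartiles (bars) for each gene list, with the number of measured genes in brackets, the median without slide (blue crosses) and all genes tested in red. ER chaperones lie wholly above 0 (quartiles 0.25 and 0.50), neutrophil markers wholly below (median −0.43), and digestive enzymes lie on opposite sides of 0 with and without slide (−0.09 and 0.09).

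Of the 20 genes with the largest average response in size, 5 had an interval of the interaction within 2-fold, against 11181 of the 17347 genes tested. Kel, an endothelin-cleaving protease, rose by 8.01 and 7.37 (interaction −0.64 ± 0.66, SE), and Rcan1, a calcineurin inhibitor, by 6.90 and 7.16 (0.26 ± 0.46, SE). At the lower end Sostdc1, a BMP antagonist, fell by 4.36 and 3.81, Plk2, a stress-induced kinase, by 3.39 and 2.74, and Grpr, a bombesin receptor, fell by 3.18 and fell by 3.21. Rnase2b had a transgenic response of −5.80 and a wild type response of −3.34 (limma, adjusted p = 0.234). It was well above background in only 1 transgenic and 2 wild type cerulein animals, so both sizes depend on bounds. Stxbp5, a regulator of vesicle fusion, had fitted responses of −3.77 in wild type and −2.51 in transgenic mice. Stxbp5 was not well above background in any wild type cerulein animal and was so in only 1 transgenic cerulein animal. The former response is thus a bound, and the latter depends on bounds.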

How the data were processed

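Signal was measured in pancreas RNA from 15 mice, 1 array each. The deposited scanner output holds Agilent Feature Extraction (version 10.7.3.1, per the file headers) background-subtracted intensities, with the authors' scanner flags (other values) for signal above background and outlier spots. The deposited series table holds log2 values whose offset and method are not given in the sources used here. Its 15 column medians run from 6.56 to 6.93, and it served as an alternative.

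Control and outlier spots were left out and spots of a probe averaged. The processed signal was put on the log2 scale minus each array's 75th percentile. Probes well above background on at least 3 arrays were kept, and the brightest kept probe stood for a gene named by 1 symbol (27235 of 55681 probes). Each symbol is that of the RefSeq gene matched by the transcript accession in the array's design, and can be old. Limma 3.58.1 in R 4.3.3 fitted 4 group means and slide by lmFit and eBayes. Contrasts were called at a two-sided Benjamini-Hochberg adjusted p below 0.05 over all 17347 genes. P-values measure the spread between the animals of these groups, and the number of arrays limits the precision. The fit was also run on simulated data with known interactions. The share it recovered is not given here, so nothing is read from that run about the sizes the test could call.

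The comparison, the gene lists and the named genes were chosen with earlier results of these data known. Named were the 8 genes with the smallest p in each direction (clone and predicted names left out, called genes first), the member with the smallest p of 12 lists, the 5 largest and 5 lowest average responses, and Btc, Hbegf, Egfr, Erbb2, Erbb3 and Erbb4. Responding genes were those called and at least 2-fold in the average response; over all 5820 called genes the turned median interaction was 0.01. Mean signal was not among the columns, so the normexp alternative (offset 50) used the median signal.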

Additional observations from a re-analysis of the deposited data

Results flagged for a closer look

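Alox12e differed between the genotypes by the test of the difference itself, with an interaction of −1.12 (limma, adjusted p = 0.0371). The call is not firm: it was lost without slide in the model and was kept in only 2 of the fits that left out 1 animal.

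Among the named genes, 126 groups of 4 animals were checked for a lone animal by Dixon's criterion and 7 had one, where chance gives about 1 in 20. Transgenic cerulein animal 13 stood apart in Rnase2b, at −0.382 against −7.09 to −5.97 in the other 3, and in Sostdc1, at 0.872 against −0.49 to −0.40. Transgenic cerulein animal 14 stood apart in Krt20, at 2.15 against 0.22 to 0.54. Transgenic cerulein animal 15 stood apart in Gadd45a, at 3.64 against 2.74 to 2.89. Transgenic cerulein animal 16 stood apart in Tex46, at −4.43 against −6.54 to −6.26. Among wild type saline animals, number 6 stood apart in Atf3, at −3.22 against −3.96 to −3.85, and number 5 in Egfr, at −0.466 against 0.40 to 0.56. No cause was tested for any of these.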

How the results depend on the processing

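The count of genes with an interaction below 0 was 1 as reported. It was 0 with no slide term, slide as a random block, slide 2 left out, normexp background, quantile normalization, median scaling, no filter, an intensity trend with a robust prior, or every kept probe tested (the last 2 chosen after seeing the data). Leaving out 1 animal at a time gave 0 to 2, with 2 without animal 5 or animal 13 (then Otud7a too, −2.68) and 0 without any of the other 13. The count above 0 was 1 with every kept probe tested and 0 under each other alternative. Over these alternatives the adjusted p of Alox12e ran from 0.0163 (array weights) to 1.00 (no slide term), and its interaction stayed below 0, from −1.34 to −0.70. Counts of called average responses stayed within 1.5 times, from 3965 to 7507.

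Signs turned for genes that were not called. Within slide 1 the interaction was 0.15 for Atf3, −0.15 for Bag3, −0.97 for Egfr, 0.43 for Erbb2, 0.36 for Erbb3, 1.2 for Grpr, 0.30 for Kel, 1.17 for Rnase2b, −0.15 for Stxbp5 and 0.29 for Trib3. Within slide 3 it was −1.39 for Chac1 and −0.21 for Rcan1. Without slide 2 it was −0.33 for Egfr, 0.10 for Erbb2, 0.62 for Grpr and −0.0905 for Rcan1. With normexp it was 0.10 for Btc, −0.013 for Chac1, 0.18 for Kel and −0.020 for Myh7b. With array weights it was −0.28 for Chac1. For Grpr it was 0.089 with no slide term, 0.0778 with quantile normalization, 0.0457 with median scaling and 0.0683 in the series table, where Btc was 0.0899. Leaving out 1 animal at a time gave −0.66 to 0.24 for Btc, −1.08 to 0.70 for Chac1, −0.33 to 0.38 for Egfr, −0.42 to 0.10 for Erbb2, −0.63 to 0.62 for Grpr, −0.0905 to 0.56 for Rcan1 and −0.52 to 0.15 for Trib3. The cause was not tested.

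Normexp kept the sign but gave values smaller by over 1.5 times for, among others, Angpt1 (0.66), Ear2 (0.71), Cyp2c29 (−0.32), Cntln (−0.32), Gadd45a (−0.35), Krt20 (−1.44), Saa3 (−1.39), Acsl3 (0.10) and Ccl3 (−0.11). The turned median of responding genes ran from −0.15 to 0.083, above 0 with normexp (0.03), with median scaling (0.05) and without animal 2, 10 or 13.

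The median of the ER chaperone list stayed above 0 (0.25 to 0.55) and that of neutrophil markers below 0 (−0.90 to −0.20) under each alternative run. Other lists kept their sign too. Above 0 stayed matrix genes and proteases (0.01 to 1.10) and secretagogue receptors and calcium signalling (0.06 to 0.30). Below 0 stayed Reg family and acute phase genes (−0.66 to −0.04) and mesothelium markers (−1.20 to −0.03). No paired analysis was possible because animal numbers are unique to each mouse and no number is shared between groups. With 3 or 4 arrays a group, the interval of the interaction was 0.60 wide on each side at the median gene. That interval is not adjusted for the number of genes tested, so 0.60 is not the size that the test could call. Larger fitted interactions, such as −2.99 for Krt20, were not called either, and dim probes give bounds.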
